A study of Homo sapiens with 6 samples.

Results

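The APOBEC3 cytidine deaminases were read in AGS cells, an established line of human gastric adenocarcinoma cells, 48 h after transfection of a control siRNA (si-Control) or of si-C1GALT1-3, an siRNA against C1GALT1. C1GALT1 is the galactosyltransferase that builds the core 1 structure of mucin-type O-glycans. Each group had 3 samples, each on 1 Agilent 1-colour array, and all of them came from this 1 cell line. The labels do not say whether the samples were separate cultures, so the p-values given for other genes measure only the spread between these samples. The members were all probes of APOBEC3A, APOBEC3B, APOBEC3C, APOBEC3D, APOBEC3F, APOBEC3G and APOBEC3H, found through the RefSeq transcript to which the array assigns each probe. They were 7 of the 22435 genes named on the array and 9 of its 58201 gene probes, with 1 probe each for 5 genes and 2 probes each for APOBEC3F and APOBEC3H, and each probe was 1 spot. The family was chosen by its measured values in this same contrast, so all differences of its members are given as a description, without a test.

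APOBEC3 enzymes remove the amino group from cytosine in single-stranded DNA and so turn it into uracil. They restrict retroviruses and mobile elements, and several of them are known to be induced by interferon. APOBEC3B is mainly nuclear, is known to be repressed in resting cells by cell cycle regulators of the DREAM complex, and is, with APOBEC3A, known as a source of clustered C-to-T and C-to-G mutations in tumours. APOBEC3D, APOBEC3F, APOBEC3G and APOBEC3H are the members best known for blocking HIV that lacks its Vif protein, and the genes of the family lie side by side on chromosome 22.

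Values are log2 normalized signals after quantile normalization over the 6 arrays. A probe was counted above background where the scanner software called its spot well above background. The signal of a probe depends on its own sequence, so levels are compared between arrays for 1 probe and never between probes. Members of this family are similar in sequence, and the binding of one member's transcripts to another's probe was not tested. In a bulk sample, fewer cells with a transcript and less of it per cell cannot be told apart.

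The array of si-Control replicate 2 carried a central region of low signal, and this region decided what could be said of APOBEC3B. The rectangle of spots that was left out, which holds 9712 of the 60901 gene spots (15.9%), had a median log2 deviation of -1.72 from the median of the other 5 arrays. The spots outside had a median deviation of 0.35. All these deviations were taken after quantile normalization with the low region kept, which can itself raise the values outside it. How far it did so was not tested. The APOBEC3B spot (row 209, column 72) and 1 of the 2 APOBEC3H spots (row 182, column 98) lay inside. The second APOBEC3F spot (row 111, column 87) lay just outside the edge. Among the spots within 6 rows and columns of each member, the median deviation on this array was -2.24 round APOBEC3B, -2.92 round the APOBEC3H spot and -1.15 round the second APOBEC3F spot. Round the other 6 member spots it was between 0.10 and 0.50, and on the other 5 arrays it lay between -0.18 and 0.16 round all 9. The values below leave out the spots of that region on that array, and the values with all spots kept follow them. APOBEC3B and that APOBEC3H probe then have 2 control arrays each.

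**Figure D1:**
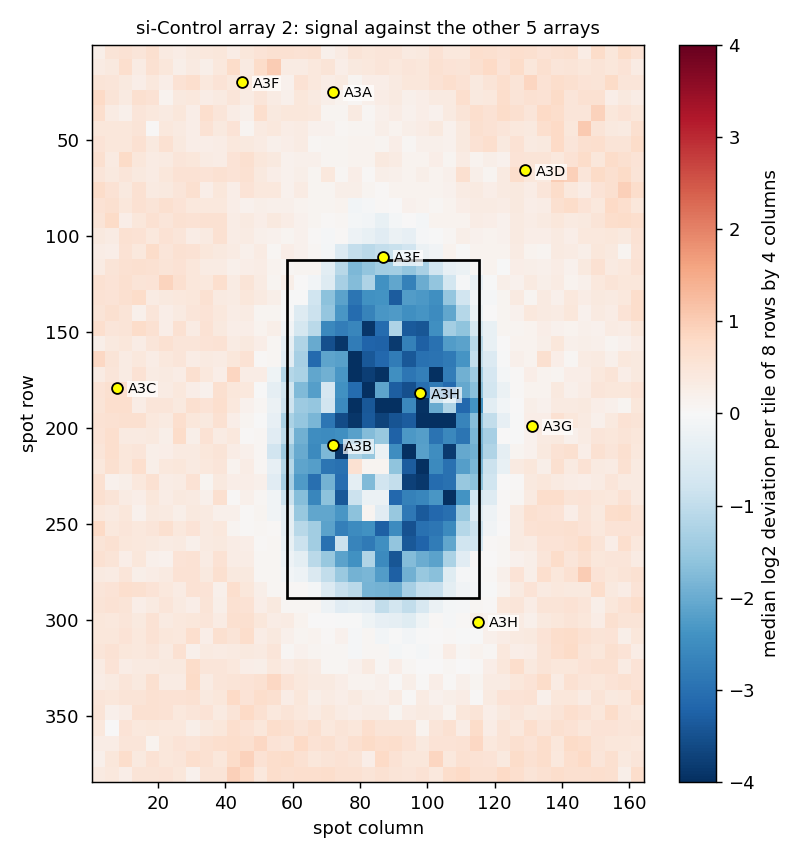
Signal across the array of si-Control replicate 2, by spot row and spot column. Each tile of 8 rows by 4 columns is coloured by the median log2 deviation of its spots from the median of the other 5 arrays, the rectangle is the region left out, and the yellow points are the 9 APOBEC3 spots. The APOBEC3B spot and 1 APOBEC3H spot sit in the low-signal region, and 1 APOBEC3F spot sits at its upper edge.

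The APOBEC3A probe was above background on no array and is left out of these counts. Of the other 8 probes, 5 were higher and 3 were lower in si-C1GALT1-3, with a median log2 fold change of 0.48. Over all probes, of which 12666 were above background on no array, the median was -0.0048. The 5 include the second APOBEC3F probe at 0.90, which was 0.15 with the region left out widened by 10 spots on each side. The median of 0.48 thus depends on that probe. With APOBEC3A the median was 0.16. APOBEC3B was the lowest of them at -2.11, APOBEC3G and both APOBEC3H probes were between 0.80 and 1.13, and 3 probes were within 0.2 of no difference. A difference of at least 2-fold with no overlap between the groups' arrays was found upwards for 2 of the 9 probes, 1 each of APOBEC3G and APOBEC3H, where 2.78% of all probes met it. It was found downwards for 1 probe, that of APOBEC3B, where 2.05% of all probes met it. Since the family was selected on this contrast, nothing is read from these shares.

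**Figure D2:**
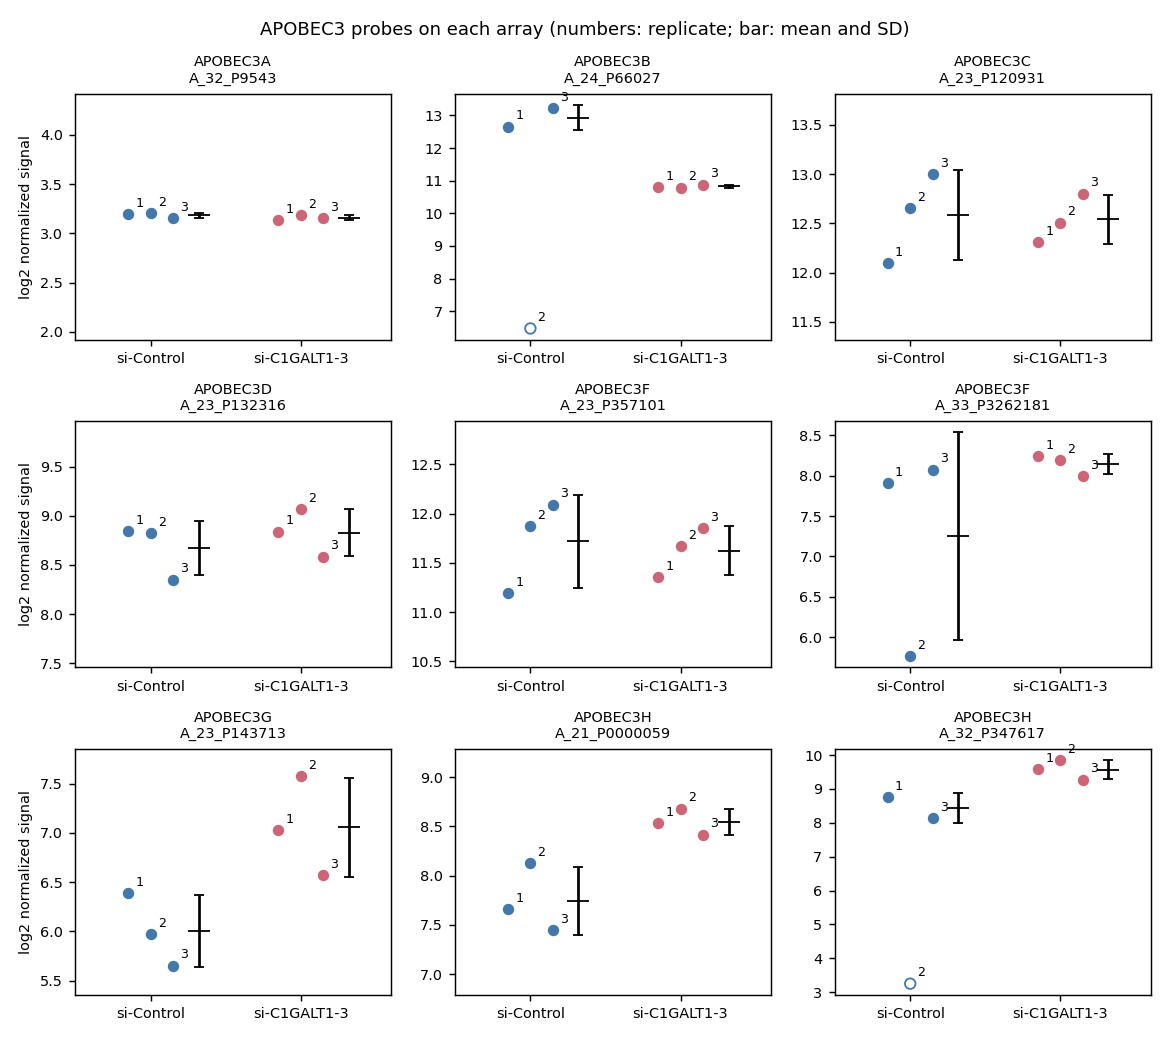
Log2 normalized signal of the 9 APOBEC3 probes on each array, with si-Control in blue and si-C1GALT1-3 in red. Numbers are the replicates, bars are the mean and SD, and open points are the spots of the low-signal region, which the mean leaves out. APOBEC3B lies lower on the 3 si-C1GALT1-3 arrays than on si-Control 1 and 3, and APOBEC3G and both APOBEC3H probes lie higher.

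APOBEC3B had the widest difference of the family. Its signal was 12.66 on si-Control 1 and 13.21 on si-Control 3, and 10.80, 10.79 and 10.88 on si-C1GALT1-3 arrays 1, 2 and 3. The 3 si-C1GALT1-3 arrays lay within 0.1 of each other and far below both usable control arrays. The means were 12.93 ± 0.39 (SD, n = 2) and 10.82 ± 0.047 (SD, n = 3), a log2 fold change of -2.11 (SE 0.22), or 23.1% of the control level. In the processed signal before normalization between arrays, this was 7929 and 7611 on the control arrays against 2093, 2066 and 1567. On si-Control 2 the same spot read 63.4, a log2 value of 6.47 with all spots kept, which lies below every other array. With that spot kept the log2 fold change was 0.010 (SE 1.82), so the whole difference rests on 2 control arrays and on leaving that spot out. Without si-Control replicate 3, which leaves si-Control 1 as the lone control array, the log2 fold change was -1.83, and without si-Control replicate 1 it was -2.39. The probe was well above background on all 5 usable arrays.

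APOBEC3A, the other member known for activity on nuclear DNA, gave no measurable level. Its signal was 3.20, 3.20 and 3.16 on the control arrays and 3.13, 3.19 and 3.16 on the si-C1GALT1-3 arrays. It was not well above background on any of the 6 arrays, so no fold is given.

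APOBEC3G, the cytoplasmic deaminase that is packaged into virus particles, had higher signal in si-C1GALT1-3. Its values were 6.39, 5.97 and 5.65 on the control arrays and 7.03, 7.58 and 6.57 on the si-C1GALT1-3 arrays. The groups did not overlap, but the gap between the highest control array and the lowest si-C1GALT1-3 array was small beside the spread within each group. The means were 6.0 ± 0.37 (SD, n = 3) and 7.06 ± 0.50 (SD, n = 3), a log2 fold change of 1.06 (SE 0.32). This probe was dim, well above background on 2 of the 3 control arrays and on all 3 si-C1GALT1-3 arrays. With all spots kept the groups overlapped and the log2 fold change was 0.86 (SE 0.37), and it was 0.58 after another background correction (normexp). Without si-C1GALT1-3 replicate 2, the highest array, it was 0.80.

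APOBEC3H, the most divergent member, which occurs in stable and unstable protein forms, had higher signal at both of its probes. The probe outside the low-signal region (A_21_P0000059) read 7.66, 8.12 and 7.45 on the control arrays and 8.54, 8.68 and 8.42 on the si-C1GALT1-3 arrays. All 3 si-C1GALT1-3 arrays lay above all 3 control arrays. The log2 fold change was 0.80 (SE 0.21), from 7.74 ± 0.35 to 8.54 ± 0.13 (SD, n = 3 each). With all spots kept, which changes only the normalization of this probe, it was 0.61 (SE 0.36) and the groups overlapped. The probe inside the region (A_32_P347617) read 8.75 on si-Control 1, 8.14 on si-Control 3, and 9.58, 9.85 and 9.28 on the si-C1GALT1-3 arrays. Here too the groups were apart. The log2 fold change was 1.13 (SE 0.29), from 8.44 ± 0.44 (SD, n = 2) to 9.57 ± 0.29 (SD, n = 3). The spot left out on si-Control 2 read 3.25, and with it the log2 fold change was 2.84 (SE 1.46). Leaving out si-C1GALT1-3 replicate 2 brought APOBEC3G (0.80) and the APOBEC3H probe A_32_P347617 (0.99) under 2-fold, and the other APOBEC3H probe, already under 2-fold, was then at 0.73.

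The upstream sequence of APOBEC3H is shown because, of the 7 members, only its promoter was held by the RefSeq table used, on GRCh38.p14. The 250 bases before the gene's start are at chr22:39096994-39097243, on the + strand.

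APOBEC3H: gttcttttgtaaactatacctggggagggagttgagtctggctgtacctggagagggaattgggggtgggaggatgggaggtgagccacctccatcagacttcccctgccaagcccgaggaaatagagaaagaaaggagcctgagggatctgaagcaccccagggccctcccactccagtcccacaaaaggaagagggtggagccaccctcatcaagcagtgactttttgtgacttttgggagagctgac

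The promoter windows, these 250 bases and the 50 after the gene's start, were searched on both strands for 3 motifs, and none of them was in the APOBEC3H window. The core of the interferon-stimulated response element (GAAANNGAA) was in 8.29% of all 27305 promoters and in 10 of 12 promoters of the interferon-stimulated reference genes described below. The gamma-activated site (TTCNNNGAA) was in 7.88% of all promoters and in 2 of those 12. The cell cycle homology region, to which the DREAM complex binds (TTTGAA or TTCGAA), was in 16.6% of all promoters and in 7 of 12 promoters of the G2/M reference genes. A missing match says only that these letters are not in this window. Promoters of APOBEC3A, APOBEC3B, APOBEC3C, APOBEC3D, APOBEC3F and APOBEC3G are not shown here.

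APOBEC3F, an antiviral member with an inactive and an active deaminase domain, was read by 2 probes that disagreed. The first (A_23_P357101) read 11.19, 11.87 and 12.09 on the control arrays and 11.35, 11.67 and 11.85 on the si-C1GALT1-3 arrays, and the groups overlapped throughout. Its log2 fold change was -0.094 (SE 0.28), and -0.19 with all spots kept. The second (A_33_P3262181), assigned to another transcript of the gene, read 7.91, 5.76 and 8.08 on the control arrays and 8.24, 8.20 and 8.0 on the si-C1GALT1-3 arrays. One array, si-Control 2, was far below the other 5, and the groups overlapped. Its log2 fold change was 0.90 (SE 0.64), but 0.15 without si-Control replicate 2 and 0.15 with the region widened by 10 spots on each side, which takes in this spot. The difference at the second probe thus rests on the 1 spot beside the low-signal region.

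APOBEC3C, a single-domain member with weak activity against HIV, had almost the same mean in both groups. It read 12.10, 12.66 and 13.00 on the control arrays and 12.31, 12.51 and 12.80 on the si-C1GALT1-3 arrays, a log2 fold change of -0.045 (SE 0.27). APOBEC3D, which can enter virus particles, read 8.84, 8.82 and 8.35 on the control arrays and 8.84, 9.07 and 8.58 on the si-C1GALT1-3 arrays, a log2 fold change of 0.16 (SE 0.21). The groups overlapped for both genes, and the standard errors leave room for differences of either sign.

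**Figure D3:**
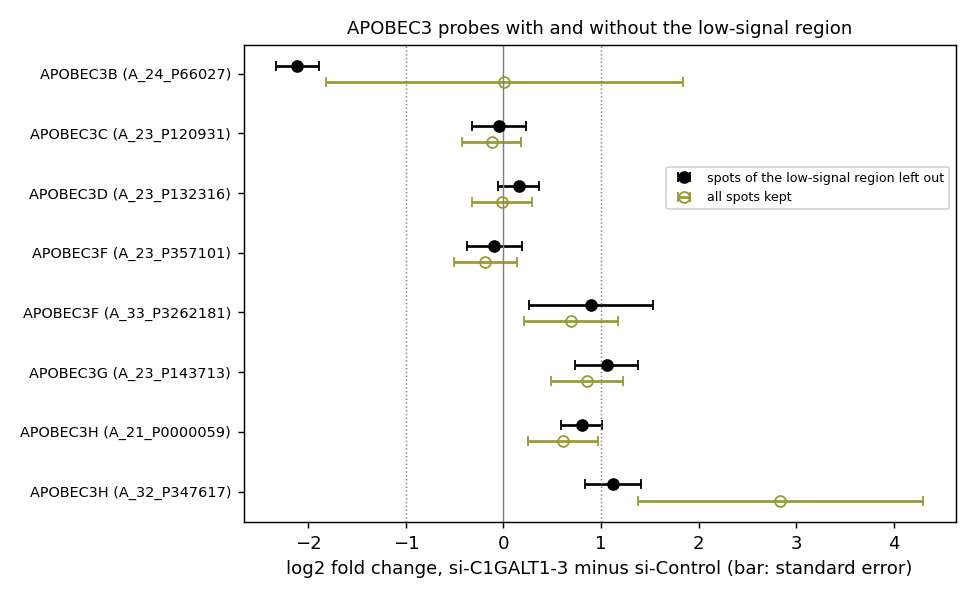
Log2 fold change of the 8 APOBEC3 probes with a measurable level, si-C1GALT1-3 minus si-Control, with its standard error. Filled points leave out the low-signal region of si-Control 2, open points keep all spots, and dotted lines mark 2-fold. APOBEC3B moves from -2.11 to 0.010 and the APOBEC3H probe A_32_P347617 from 1.13 to 2.84, while the other 6 probes move far less.

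The scanner files place replicates of the same number on 1 slide, so each difference could also be read within a slide. APOBEC3B was lower by a log2 difference of -1.86 on slide 1 and -2.34 on slide 3, with no usable control on slide 2. APOBEC3G was higher on every slide, by 0.64, 1.61 and 0.92 on slides 1, 2 and 3. The APOBEC3H probe outside the region was higher by 0.88, 0.56 and 0.97, and the other probe by 0.83 on slide 1 and 1.14 on slide 3. APOBEC3C and the first APOBEC3F probe were higher on slide 1 and lower on slides 2 and 3, by at most 0.24. At APOBEC3C and the first APOBEC3F probe, the slide 3 array had the highest signal of its group in both groups. On every slide si-Control lay in array column 1 and si-C1GALT1-3 in column 2, so the column and the siRNA cannot be told apart.

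**Figure D4:**
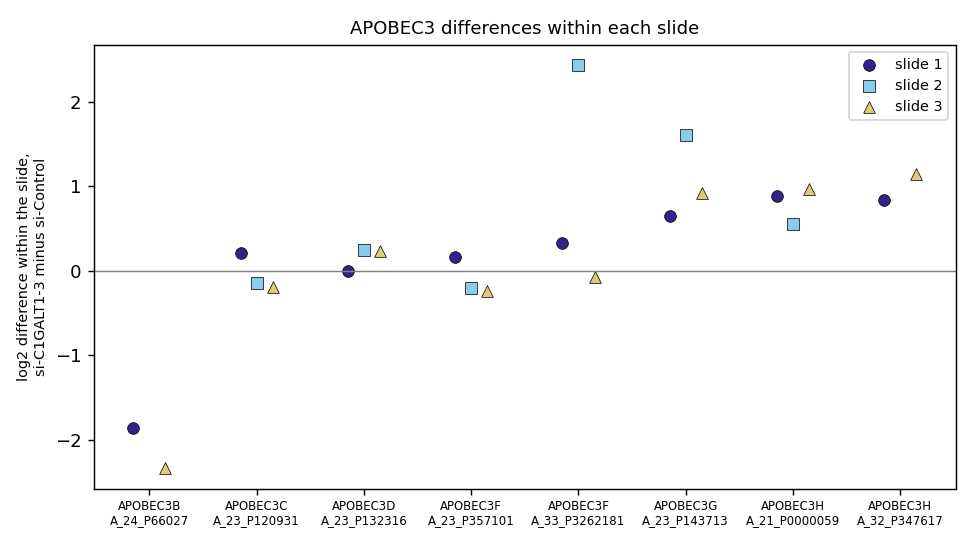
Difference in log2 normalized signal between the si-C1GALT1-3 and si-Control arrays of the same slide, for the 8 APOBEC3 probes with a measurable level. Points are slides 1, 2 and 3, and slide 2 has no point where the control spot was left out. APOBEC3B lies below 0 on both slides that have a point, and APOBEC3G and both APOBEC3H probes lie above 0 on every slide that has one.

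Facts of the arrays as a whole bear on these values. Between 66.2% and 72.7% of gene spots were well above background on an array, with si-C1GALT1-3 3 (67.5%) and si-Control 3 (67.6%) near the low end and si-C1GALT1-3 2 the highest. At APOBEC3D, APOBEC3G and both APOBEC3H probes, si-C1GALT1-3 3 was the lowest and si-C1GALT1-3 2 the highest of its group, and the part of array quality in this was not tested. C1GALT1 itself, the siRNA target, had a mean of 12.62 ± 0.40 in si-Control and 11.62 ± 0.44 in si-C1GALT1-3 (SD, n = 3 each). Its log2 fold change was -1.0 (SE 0.31), lower on all 3 slides with the groups apart, but limma's p was 0.019 and the adjusted p 0.27. With p under 0.01 and at least 2-fold, the threshold used for genes outside the family, 961 probes (1.65%) rose and 577 (0.992%) fell of 58193 tested. At limma's unadjusted p under 0.05, 8028 of the 58193 probes passed, and counts of list genes at that p stand beside this share. At an adjusted p under 0.05, 49 probes passed, and the smallest adjusted p was 0.0499. All 6 epithelial markers, among them the keratin KRT18, were above background on every array, and 0 passed limma at an unadjusted p under 0.05. Of 9 leukocyte markers measured, 5 were above background on every array, and MS4A1, a B-cell marker, was so on 1 array. In si-C1GALT1-3, 1 of the 9 was higher and 8 were lower, with a median log2 fold change of -0.37. By limma, 0 of them passed at an unadjusted p under 0.05.

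The other members of the wider deaminase family did not pass the threshold. Of 13 genes outside the APOBEC3 group, 0 rose and 0 fell by limma, and the median log2 fold change was 0.051. An unadjusted p under 0.05 was found for 3 of them, and for 8028 of the 58193 probes tested. The highest was CDADC1, a deaminase-like gene (0.65, limma's p 0.028). Uracil repair, which removes the product of the APOBEC3 reaction, also had 0 of 17 genes called by limma, 6 with an unadjusted p under 0.05, and a median of 0.022. In that group APEX1, which cuts the DNA at abasic sites, had the highest value (0.62, SE 0.37) and DUT, which keeps uracil out of DNA by hydrolysing dUTP, the lowest (-1.04, SE 0.30, limma's p 0.014). The ubiquitin ligase that HIV Vif directs at APOBEC3 proteins had 0 of 6 subunits or partners called by limma and 1 with an unadjusted p under 0.05, between CUL5, its cullin scaffold (-0.46, SE 0.26), and ARIH2, a partner ligase (0.66, SE 0.56). ARIH2 was at 0.034 without si-Control replicate 2, where it read 11.45 against 13.10 and 13.60 on the other control arrays.

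The known regulators of the family were read in the same fit. Of 19 DREAM and MYBL2-MuvB genes, 1 rose and 2 fell, with a median of 0.072. E2F5, a repressor E2F, rose by 1.23 (SE 0.19) with its si-Control 2 spot left out. FOXM1, an activator of mitotic genes, fell by 1.19 (SE 0.25) and LIN9, a MuvB core subunit, fell by 1.11 (SE 0.19), with limma's adjusted p between 0.12 and 0.16 for the 3 genes. With the replicate as a block, E2F5 and LIN9 passed and FOXM1 did not. FOXM1 also missed the threshold when any array other than si-Control 1 was left out, and LIN9 without si-C1GALT1-3 replicate 3. Without normalization between arrays both missed it, FOXM1 at -1.08 (limma's p 0.012) and LIN9 at -0.99 (limma's p 0.033). FOXM1 missed it with the deposited series table too (limma's p 0.015). Of 10 NF-kB subunits and kinases, which are known to drive APOBEC3B, 0 were called by limma and 2 had an unadjusted p under 0.05, with IKBKB, an activating kinase, the highest (0.72) and NFKB2 the lowest (-0.31, and 0.63 with all spots kept). Of 15 interferon receptors and signalling genes, 1 rose, IFNGR1, a chain of the interferon gamma receptor, by 1.11 (SE 0.16; 0.99 without si-C1GALT1-3 replicate 3), and 0 fell, where 7 had an unadjusted p under 0.05. JAK1, a receptor kinase, was the lowest there (-0.59), and the median was 0.57.

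The reference lists for these inputs moved in opposite directions. Of 16 interferon-stimulated genes, 10 rose and 0 fell by limma, 12 had an unadjusted p under 0.05, and the median was 1.43. OAS2, a sensor of double-stranded RNA, rose by 2.63 (SE 0.23), and IFIT2 had the lowest value (-0.13). The number that rose was 8 with all spots kept and with normexp, and 8 to 11 when 1 array was left out. OAS2, IFI44L and BST2, 3 genes of this list, passed limma's adjusted p at 0.0499. All 3 also passed with the 75th percentile and with normexp. None of the 3 passed with all spots kept, with outlier spots kept (limma's adjusted p 0.0503) or with the replicate block (0.18). When any 1 array was left out, none passed either (limma's adjusted p 0.14 to 0.32). TRIM22, not well above background on the control arrays, was at least 2.36-fold higher (limma's adjusted p 0.091), with each control array set to its lowest signal well above background. That bound holds for the main processing, and with normexp the log2 fold change of TRIM22 was 0.78, under 2-fold. Of 14 G2/M genes measured, 9 fell and 0 rose by limma, all 14 had an unadjusted p under 0.05, and the median was -1.22. The number that fell was 4 with the replicate as a block, 2 without normalization and 5 when replicate 2 or 3 of either group was left out, while all 14 stayed below 0 in each. BIRC5, a chromosomal passenger protein, fell by 1.58 (SE 0.27), a call lost with the replicate block, and BUB1B had the smallest difference (-0.81, and 0.93 with all spots kept). With all spots kept, 3 of the 14 G2/M genes had values above 0. Beside these medians stood 1.06 at APOBEC3G, 0.80 and 1.13 at APOBEC3H and -2.11 at APOBEC3B. APOBEC3C, APOBEC3D and the first APOBEC3F probe lay within 0.2 of 0. Whether the family's values depend on either list was not tested.

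**Figure D5:**
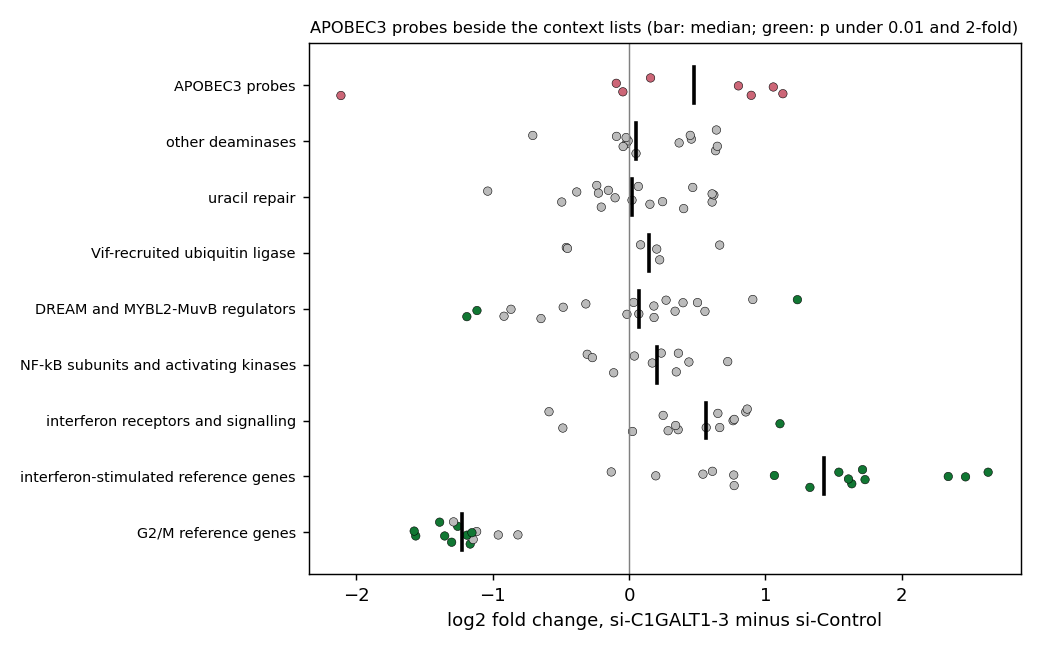
Log2 fold change, si-C1GALT1-3 minus si-Control, of the 8 APOBEC3 probes with a measurable level (red) and of the genes of 8 lists. Each point is a probe of the family or a gene, black bars are medians, and green points passed p under 0.01 and 2-fold. The interferon-stimulated genes have a median of 1.43 and the G2/M genes of -1.22, and APOBEC3B lies at -2.11.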

How the data were processed

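The authors deposited, per the file headers, Agilent Feature Extraction output (version 10.5.1.1) for the 6 arrays, with a background-corrected processed intensity per spot that is not normalized between arrays. The series table that they also deposited equals the scanner files' background-subtracted intensity column to within 4.8e-09. The precision is limited by the 3 arrays per group. From the deposited intensity, log2 values of the processed signal were taken, control spots were left out, and spots marked non-uniform or population outliers (100 to 424 per array) were set to missing. The spots of the low-signal region of si-Control replicate 2 were also set to missing. Arrays were quantile normalized, spots of a probe averaged, and groups compared with limma 3.58.1 (lmFit and eBayes, two-sided) in R 4.3.3. P-values were adjusted by Benjamini-Hochberg over all probes tested. The fit was tested on simulated data with independent values and no missing spots. That test does not cover probes with a spot left out, such as that of APOBEC3B, or shared slides.

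Probes were named through a RefSeq gene table of GRCh38.p14, which named 31100 of 58201 probes. The arrays' build differs, so no gene coordinates are given beyond the promoter's own. A gene outside the family was read at its probe with the highest mean log2 signal. The members, the lists and the region left out were chosen with earlier results of these data known. Named genes are the 7 members, C1GALT1, the highest and lowest of each list, the cluster's neighbours and the 5 genes most like APOBEC3B, and 1 gene under this rule is not reported here. LIN9, IFI44L, BST2 and TRIM22 were named after their values were seen.

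The scanner files put same-numbered replicates on 1 slide, and their deviations from the group means correlated at 0.200, 0.214 and 0.318. The main fit did not use this pairing, so its standard errors and p-values are unpaired. The replicate block, which takes the numbers as pairs, was an alternative. The other alternatives were no region left out, the 75th percentile or no normalization, normexp with an offset of 50 on the median spot signal (the mean signal planned is not used here), the series table with a floor of 10, outlier spots kept, a trend and robust prior, dim probes left out, and each array left out in turn. A wider region was chosen after seeing the data.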

Additional observations from a re-analysis of the deposited data

How the results depend on the processing

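With the low-signal region kept, APOBEC3B was at 0.010 in place of -2.11, the APOBEC3H probe A_32_P347617 at 2.84, 1 APOBEC3 gene was at least 2-fold higher with ranges apart in place of 2, and 0 were lower. That setting called 474 probes higher, and 40.2% of its calls were higher, against 62.5%. The number of APOBEC3 genes so higher was 1 with the 75th percentile and with the replicate block, 0 without normalization and 0 with normexp, which put APOBEC3G at 0.58. Without normalization 295 probes and 2 genes of the lists were lower, with 72.6% of calls higher. Normexp called 497 probes higher and 915 in all, 54.3% of them higher. The 75th percentile gave 54.1% higher and moved the median of all probes to -0.11. The lists had 12 genes higher and 11 lower, 6 lower with the series table and 5 lower with the replicate block, among them 4 G2/M genes in place of 9 and 1 DREAM and MYBL2-MuvB gene in place of 2. The block moved none of the other counts here by over 1.5 times.

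Leaving out 1 array gave -2.39 to -1.83 for APOBEC3B, 0.80 to 1.30 for APOBEC3G, 0.65 to 0.99 and 0.82 to 1.44 for the APOBEC3H probes, and 0.15 to 1.31 for the second APOBEC3F probe. It gave 0 to 2 APOBEC3 genes higher and 1 to 1 lower, 658 to 1075 probes higher, 477 to 769 lower and 1135 to 1818 in all, and 9 to 15 list genes higher and 5 to 12 lower. A lone control array was assumed to vary like the other group. Of 126 member values under alternatives, 118 stayed within the replicate spread, 7 moved and 1 reversed, that of APOBEC3B with all spots kept. The 118 are no measure of stability. They include APOBEC3A, and the second APOBEC3F probe, whose spread was wide (SE 0.64). They also include APOBEC3B without si-Control replicate 2, where its spot had already been left out. The array's background limits APOBEC3A, and 2 control arrays limit APOBEC3B. The cause of these shifts was not tested.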

Other observations

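The neighbours of the family on chromosome 22 were read in the same fit. In the order of the RefSeq table, DNAL4, NPTXR and CBX6 precede APOBEC3A, the antisense gene APOBEC3B-AS1 lies between APOBEC3B and APOBEC3C, and COX5BP7, CBX7 and FUNDC2P4 follow APOBEC3H. DNAL4, a dynein light chain, rose by 1.1 (SE 0.21) on the log2 scale, with limma's adjusted p at 0.14, and did not pass with all spots kept or without si-C1GALT1-3 replicate 2 or si-Control replicate 3. Its signal was 10.32, 10.74 and 10.10 on the control arrays and 11.44, 11.66 and 11.35 on the si-C1GALT1-3 arrays, and the groups were apart. APOBEC3B-AS1 had a log2 fold change of -0.18 (SE 0.21), with 7.89, 7.55 and 8.07 on the control arrays and 7.92, 7.48 and 7.57 on the si-C1GALT1-3 arrays, so its groups overlapped. NPTXR, a neuronal pentraxin receptor, was at 0.30 (SE 0.50) and CBX7, a Polycomb protein, at 0.046 (SE 0.18), and neither passed the threshold.

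The 5 genes whose signal followed APOBEC3B most closely over its 5 usable arrays, among 13931 genes, were RAD18 (Pearson r 0.999), MEAF6 (0.999), CUTC (0.999), SERINC4 (0.998) and KPNA3 (0.997). The 5 arrays fall into 2 groups and share their slides, so these r values largely restate the difference between the groups and are given with no test. Their log2 fold changes over all 6 arrays were -0.62, -0.36, -0.51, -0.34 and -1.20, all smaller in size than that of APOBEC3B, and RAD18 and SERINC4 read lower on si-Control 2 than on any other array.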
